A study of Danio rerio with 6 samples.

Results

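Genes of the extracellular matrix were taken from 2 deposited gene tables by the start of their names. These were the collagens, the laminins (lama, lamb, lamc), fibronectin (fn1), sparc, lumican (lum), decorin (dcn), periostin (postn) and the thrombospondins (thbs). With a mean above 0 in either table, 78 of 23228 genes met this rule, of which 49 were collagens and 13 laminins. Another 7 rows with such names had a mean of 0 in both tables, among them col8a1a, col8a1b, thbs1b and both rows named col6a3. One of the 78, col4a3bpb, shared only the spelling: its current symbol is CERT1, a ceramide transfer protein, so that 77 genes encoded matrix proteins or close relatives of them.

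The extracellular matrix is made mainly by fibroblasts and other stromal cells, while blood cells make little of it. Fibril-forming collagens such as types I and V build the fibers of connective tissue, and type VI collagen forms beaded filaments around cells. Type IV collagen and the laminins, trimers of an alpha, a beta and a gamma chain, build the basement membrane under epithelium and around vessels. Fibronectin is laid down early in growing or healing tissue and binds both collagen and the integrins of cells.

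RNA was sequenced from 6 zebrafish libraries, 2 in each of 3 groups, none of them treated. The lck-mCherry group was normal thymus of fish that carried only the red fluorescent marker mCherry under the promoter of lck, a gene of T lymphocytes. The lck-IRF4 group was tumor cells of fish with human IRF4, a transcription factor of lymphocytes, and mCherry under that promoter. The lck-IRF4;p53+/- group was tumor cells of such fish that also carried a mutation in 1 of their p53 copies. All 3 groups thus shared the marker and the promoter, and the lck promoter drives the transgenes in lymphocytes. Tumor cells were sorted on mCherry after lymphoma had appeared, and for the control thymus the labels state harvest but not sorting. Tissue of origin and tumor state therefore differed together between control and tumor groups, and their parts cannot be told apart. Nothing in the labels says that replicates came from separate fish, so p-values measured only the spread between these samples, which may be technical. For regular RNA-seq the authors state an age only for lck-IRF4 tumor fish. The ages of the control and the lck-IRF4;p53+/- fish behind these libraries are not given in the sources used here. Age may therefore have differed together with tissue and tumor state.

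Transcript counts summed to between 10138258 and 12655373 per library. Values per gene and library, called reads here, were recovered from the authors' means for 23074 genes, with 5196478 to 6904769 reads per library. A level is given in CPM, the reads of a gene per megaread of an effective library size. That size was the total of these genes multiplied by the TMM scaling factor of the library. The factor ran from 0.866 in lck-mCherry replicate 1 to 1.135 in lck-IRF4 replicate 1. On this scale 3 reads corresponded to 0.383 to 0.554 CPM. The recovery left out the 154 most abundant genes, none of which was a matrix gene. Among those most abundant genes were lck itself, zap70 and themis. Control thymus and T-cell tumors both hold T cells, so these genes cannot check which group a library belongs to. The 10 other T-cell markers recovered summed to 4310 and 3650 CPM in the controls. In the tumors they summed to 2410 and 3240 CPM (lck-IRF4) and to 1940 and 2830 CPM (lck-IRF4;p53+/-). One name in that list, cd3eap, belongs to a subunit of RNA polymerase I and not to a T-cell receptor chain. Human IRF4 and mCherry were not analysed here.

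The 78 genes together held a small share of every library, and the share was larger in all 4 tumor libraries than in both controls. That share was 0.00794% (95% Wilson interval 0.00731 to 0.00864) and 0.00948% (0.00874 to 0.0103) of the recovered reads in the lck-mCherry libraries. The shares were 0.0201% (0.0191 to 0.0212) and 0.0194% (0.0182 to 0.0206) in the lck-IRF4 libraries. They were 0.0300% (0.0287 to 0.0313) and 0.0505% (0.0489 to 0.0523) in the lck-IRF4;p53+/- libraries. The groups did not overlap, and the intervals, which cover counting error only, did not reach from one group to the next. No test of a share was made, since the smallest two-sided p of an exact permutation of 2 libraries against 2 is 0.33. In bulk samples, fewer cells of a type and less RNA per cell cannot be told apart.

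Reads were few for most of the genes. Only 22 of the 78 had a read in every library, 19 had 3 reads or fewer in each library, and 28 had none in either control. A filter on low counts left 30 of the 78 for testing and 48 untested. Just inside the filter stood col4a1 with 34 reads in all, lamb1a with 37, col6a4a with 39 and col4a4 with 47. Among those just outside it were col4a5 and postna with 40 reads each and col11a1b with 36. Because a gene could pass the filter through the groups in which it was high, counts over the 30 do not stand for all 78.

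**Figure D1:**
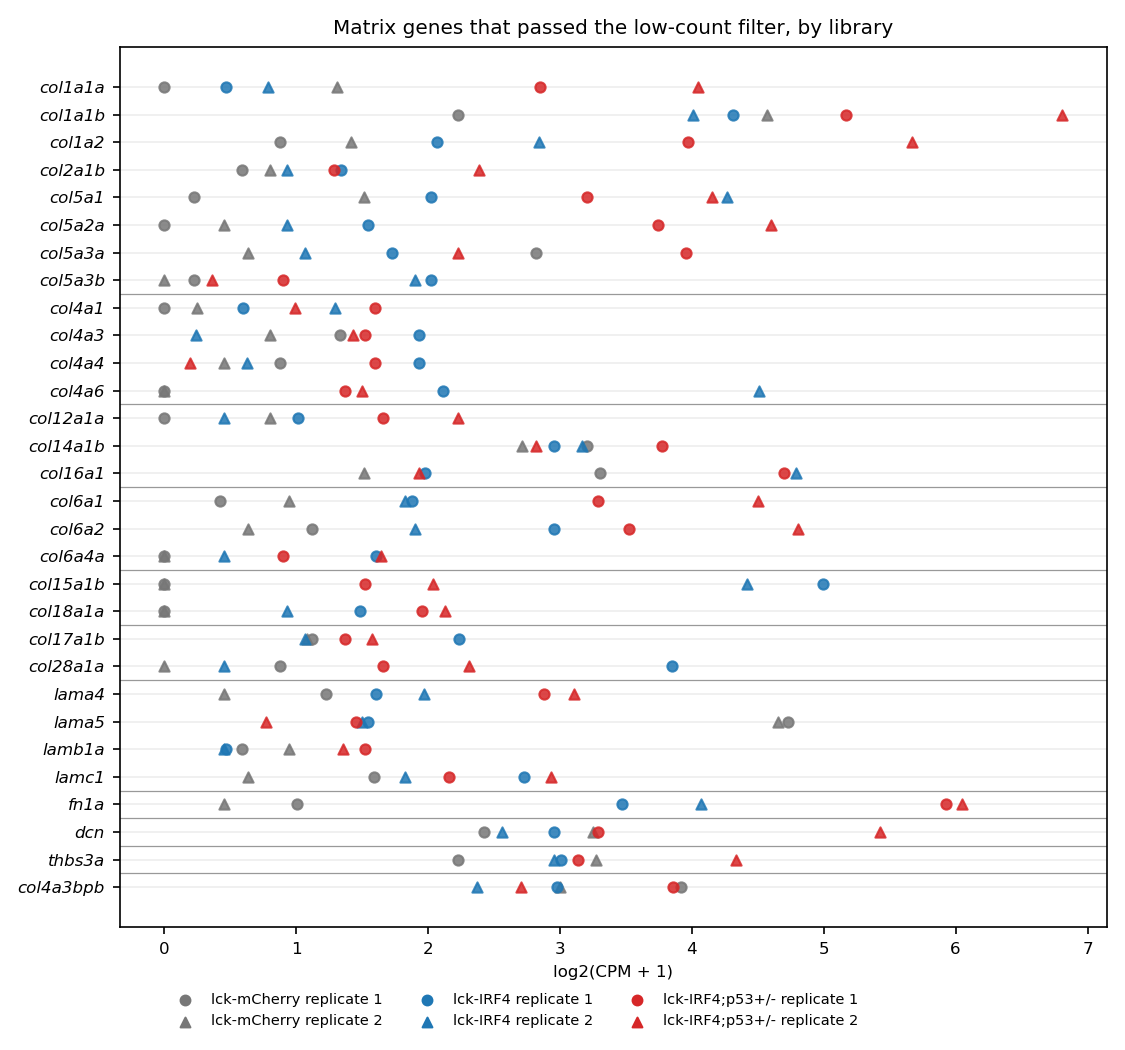
Level of each of the 30 tested genes in each library, as log2(CPM + 1), grouped by class, with circles for replicate 1 and triangles for replicate 2 of each group. In fn1a the 6 libraries fall into 3 separate pairs from 0.369 to 65.3 CPM, col15a1b lies at 0 in both controls, and lama5 is the gene whose 2 control libraries stand far above the tumor libraries; the lowest row, col4a3bpb, is not a matrix gene.

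In lck-IRF4 tumors against control thymus, 2 of the 78 genes rose and 0 fell by edgeR's quasi-likelihood test with Benjamini-Hochberg adjustment over 14046 genes (edgeR adjusted p below). Both were fn1a, a fibronectin, and col15a1b, a collagen of basement membrane zones. Over all genes tested, 0.940% were called in this comparison, 0.698% of them as higher. In lck-IRF4;p53+/- tumors against the same controls, 4 genes rose and 1 fell, beside 2.43% of all genes tested, 1.28% as higher and 1.15% as lower. The 4 were fn1a, col15a1b, col1a2 and col5a2a, and the gene that fell was the laminin chain lama5. Both comparisons share their 2 control libraries, so they are given side by side and not as support for each other. Without either control library no gene of the whole table was called against control. At an unadjusted p under 0.05 there were 10 and 16 of the 30 genes tested, where 18.6% and 19.7% of all tested genes passed.

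Without any filter, both lck-IRF4 libraries lay above both controls for 25 of the 78 genes (32.1%), as they did for 21.6% of all recovered genes. Both lck-IRF4;p53+/- libraries lay above both controls for 36 of the 78 (46.2%), against 24.3% of all recovered genes. The reverse, both libraries below both controls, held for 5 of the 78 (6.41%) in lck-IRF4 tumors and for 2 (2.56%) in lck-IRF4;p53+/- tumors. Among all recovered genes it held for 16.4% and 17.0%. All 4 tumor libraries lay above both controls for 22 of the 78 (28.2%), against 13.0% of all recovered genes. Over the 30 tested genes the log2 fold change had a median of 1.48 for lck-IRF4 tumors and of 2.63 for the lck-IRF4;p53+/- group, where the median over all tested genes was -0.00 and 0.03. These 30 could pass the filter through the tumor libraries. With all 78 genes kept in the filter the medians were 1.32 and 2.23. The median of the tested genes in lck-IRF4 tumors was 0.24 without lck-IRF4 replicate 1 and 2.37 without lck-mCherry replicate 2, with more genes passing the filter in these fits.

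Fibronectin rose in both tumor groups. The gene fn1a (ENSDARG00000019815.11) had 6 and 2 reads in control thymus, 79 and 87 in lck-IRF4 tumors and 416 and 463 in lck-IRF4;p53+/- tumors. The 3 groups were separate, and the replicates of each tumor group lay close together. The mean level was 0.688 CPM in control thymus, 12.9 CPM in lck-IRF4 and 62.6 CPM in lck-IRF4;p53+/- tumors. The log2 fold change against control was 4.18 (SE 0.67, edgeR adjusted p = 0.0447) in lck-IRF4 tumors and 6.45 (SE 0.71, edgeR adjusted p = 0.0168) in lck-IRF4;p53+/- tumors. The ratios of pooled reads were 17.7 (95% counting interval 8.78 to 41.7) and 89.1 (45 to 207). Between the tumor groups the log2 difference was 2.27 (SE 0.56, edgeR adjusted p = 0.325). The call in lck-IRF4 tumors was lost without any 1 of its 4 libraries, with an edgeR adjusted p of 0.176 and 0.156 without lck-mCherry replicates 1 and 2 and of 0.0718 and 0.0727 without lck-IRF4 replicates 1 and 2, and it was also lost in a fit of these 4 libraries alone (0.0540). In lck-IRF4;p53+/- tumors fn1a was not called without lck-mCherry replicate 1 or 2 (7.33 and 5.90, edgeR adjusted p = 0.0839 and 0.0977) and stayed called without either tumor library (6.51 and 6.37, edgeR adjusted p = 0.0113 and 0.0266). The second fibronectin gene, fn1b, had 0 reads in both controls and at most 5 in any tumor library, and was not tested.

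Among the fibril-forming collagens, 2 genes rose in lck-IRF4;p53+/- tumors. The gene col1a2 (ENSDARG00000020007.9), which encodes the alpha 2 chain of type I collagen, had 5 and 9 reads in the controls, 25 and 34 in lck-IRF4 and 102 and 354 in lck-IRF4;p53+/- libraries. The groups did not overlap, and the second lck-IRF4;p53+/- library stood well above the first. Its log2 fold change against control was 4.68 (SE 0.90, edgeR adjusted p = 0.0459) in lck-IRF4;p53+/- and 1.89 (SE 0.84, edgeR adjusted p = 0.280) in lck-IRF4 tumors. Without lck-IRF4;p53+/- replicate 2, the former was 3.53 (edgeR adjusted p = 0.224), and without lck-mCherry replicates 1 and 2 it was 4.27 and 5.20 (edgeR adjusted p = 0.189 and 0.159). The gene col5a2a (ENSDARG00000031678.8), a chain of type V collagen, which is built into type I fibrils, had 0 and 2 reads in the controls, 15 and 5 in lck-IRF4 and 86 and 165 in lck-IRF4;p53+/- libraries. The groups were again separate. Its log2 fold change was 6.50 (SE 1.21, edgeR adjusted p = 0.0427) in lck-IRF4;p53+/- tumors, with a ratio of pooled reads of 102 (95% counting interval 27.9 to 845) that rests on 2 control reads. In lck-IRF4 tumors the log2 fold change of col5a2a was 2.87 (SE 1.18, edgeR adjusted p = 0.249). The call of col5a2a was lost without lck-IRF4;p53+/- replicate 2 (5.95, edgeR adjusted p = 0.153) and without lck-mCherry replicates 1 and 2 (edgeR adjusted p = 0.141 and 0.116), and also with deposited transcript totals as library sizes (0.0522).

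The partners of col1a2 in the type I trimer did not pass the test. The gene col1a1b had 22 and 123 reads in the controls, 148 and 83 in lck-IRF4 and 243 and 788 in lck-IRF4;p53+/- libraries. Its control libraries were themselves far apart, with replicate 2 at 6.15 times the level of replicate 1, and the lck-IRF4 values overlapped them. The log2 fold change in lck-IRF4;p53+/- tumors was 2.47 (SE 0.90, edgeR adjusted p = 0.191). Its copy col1a1a had 0 and 8 reads in the controls, 3 and 4 in lck-IRF4 and 43 and 110 in lck-IRF4;p53+/- libraries. Only the lck-IRF4;p53+/- values were clear of the controls, with a log2 fold change of 3.87 (SE 1.36, edgeR adjusted p = 0.178). Reads that fit both copies may be lost or misassigned in the counting, so each copy may be less certain than the pair. How alike the sequences of the copies are was not examined here.

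The other type V chains differed from each other in their pattern. For col5a1, reads were 1 and 10 in the controls, 24 and 100 in lck-IRF4 and 57 and 119 in lck-IRF4;p53+/- libraries. All 4 tumor libraries were above both controls, and the log2 fold changes were 3.38 (SE 1.24, edgeR adjusted p = 0.205) and 3.63 (SE 1.25, edgeR adjusted p = 0.171). For col5a3b, reads were 1 and 0 in the controls, 24 and 15 in lck-IRF4 and 6 and 2 in lck-IRF4;p53+/- libraries, so that the lck-IRF4 libraries were the highest. For col5a3a, reads were 36 and 3 in the controls, 18 and 6 in lck-IRF4 and 101 and 26 in lck-IRF4;p53+/- libraries, and the controls overlapped both tumor groups. Of the cartilage type II collagens, col2a1b had between 3 and 30 reads in every library and col2a1a had at most 2. The 15 fibril-forming genes summed to 12.1 and 30.1 CPM in the controls, 35.5 and 46.0 CPM in lck-IRF4 and 97.2 and 227 CPM in lck-IRF4;p53+/- libraries. These sums did not overlap between groups, and within both the control and the lck-IRF4;p53+/- group replicate 2 held 2.49 and 2.34 times the level of replicate 1.

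Type VI collagen lay just outside the threshold. The gene col6a1 had 2 and 5 reads in the controls, 21 and 14 in lck-IRF4 and 61 and 154 in lck-IRF4;p53+/- libraries. The gene col6a2 had 7 and 3 reads in the controls, 53 and 15 in lck-IRF4 and 73 and 191 in lck-IRF4;p53+/- libraries. Both genes were ordered alike, with control libraries lowest and lck-IRF4;p53+/- libraries highest, and without overlap between groups. In lck-IRF4;p53+/- tumors the log2 fold change was 4.57 (SE 0.92, edgeR adjusted p = 0.0502) for col6a1 and 4.40 (SE 0.93, edgeR adjusted p = 0.0563) for col6a2. In lck-IRF4 tumors it was 2.03 (SE 0.88, edgeR adjusted p = 0.270) for col6a1 and 2.43 (SE 0.88, edgeR adjusted p = 0.202) for col6a2. Another member, col6a4a, had no read in the controls, 16 and 2 in lck-IRF4 and 6 and 15 in lck-IRF4;p53+/- libraries, at least 2.28-fold and 2.82-fold higher than 3 reads per control library (edgeR adjusted p = 0.192 and 0.165). The chains col6a1 and col6a2 assemble with the product of col6a3, and both rows of that name had a mean of 0.

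**Figure D2:**
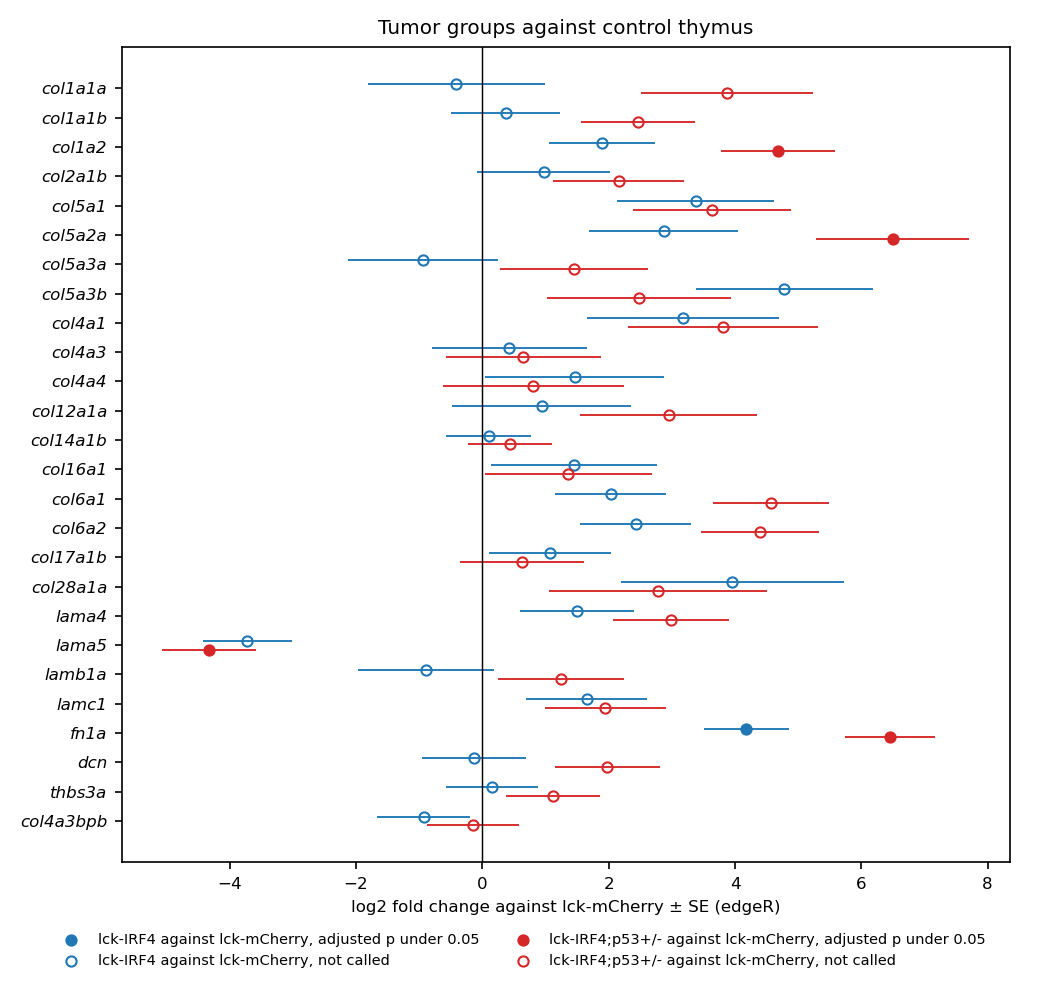
Log2 fold change of each tested gene against control thymus with its standard error from edgeR, for lck-IRF4 (blue) and lck-IRF4;p53+/- tumors (red); filled points passed an adjusted p under 0.05. Filled points are fn1a in both groups (4.18 and 6.45) and col1a2 (4.68), col5a2a (6.50) and lama5 (-4.33) in lck-IRF4;p53+/- tumors only; the 4 genes without a read in the controls (col15a1b, col18a1a, col4a6, col6a4a) are not drawn because their fold has only a lower bound.

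Among the multiplexin collagens, which lie where basement membrane meets fibrous matrix, col15a1b had another order of groups. The gene col15a1b (ENSDARG00000061848.8) had no read in either control, 242 and 112 reads in lck-IRF4 and 13 and 22 in lck-IRF4;p53+/- libraries. The lck-IRF4 libraries were the highest, and no group overlapped another. Taking 3 reads per control library as the limit, col15a1b was at least 48.5-fold higher in lck-IRF4 (edgeR adjusted p = 0.0289) and at least 4.71-fold higher in lck-IRF4;p53+/- tumors (edgeR adjusted p = 0.0480) than in control thymus. From lck-IRF4 to lck-IRF4;p53+/- the log2 difference was -3.35 (SE 0.72, edgeR adjusted p = 0.300), with a ratio of pooled reads of 0.0939 (95% counting interval 0.0644 to 0.133). In lck-IRF4 tumors the call was lost without lck-IRF4 replicate 1 (edgeR adjusted p = 0.0588) and without lck-mCherry replicates 1 and 2 (0.176 and 0.156). For lck-IRF4;p53+/- tumors it was lost without each library but lck-IRF4;p53+/- replicate 1, with edgeR adjusted p of 0.142 and 0.137 without lck-mCherry replicates 1 and 2, 0.0640 and 0.0674 without lck-IRF4 replicates 1 and 2, and 0.129 without lck-IRF4;p53+/- replicate 2. It was also lost with only the 4 libraries compared (edgeR adjusted p = 0.0542), with transcript totals as library sizes (0.0572) and in limma (adjusted p = 0.129). The gene col18a1a, whose mammalian product is cut to release endostatin, also had no read in the controls, against 14 and 5 reads in lck-IRF4 and 20 and 24 in lck-IRF4;p53+/- libraries. It was at least 2.55-fold and 5.93-fold higher (edgeR adjusted p = 0.126 and 0.0758), and its lck-IRF4;p53+/- libraries were the highest. Another multiplexin gene, col18a1b, had 6 reads in lck-mCherry replicate 2, 1 in lck-IRF4;p53+/- replicate 1 and none elsewhere, and was not tested.

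Type IV collagen of the basement membrane summed to 2.68 and 1.29 CPM in the controls, 12.4 and 25.5 CPM in lck-IRF4 and 8.93 and 6.77 CPM in lck-IRF4;p53+/- libraries. As with col15a1b, the lck-IRF4 libraries were highest. The gene with the most reads was col4a6, which held most of the sum in lck-IRF4 replicate 2 but not in replicate 1, with no read in the controls, 26 and 120 in lck-IRF4 and 11 and 13 in lck-IRF4;p53+/- libraries. It was at least 23.8-fold higher in lck-IRF4 (edgeR adjusted p = 0.0706) and at least 3.23-fold higher in lck-IRF4;p53+/- tumors (edgeR adjusted p = 0.131). Its neighbor in the genome, col4a5, had 1 and 0 reads in the controls, 21 and 6 in lck-IRF4 and 4 and 8 in lck-IRF4;p53+/- libraries, and was not tested. The common pair col4a1 and col4a2, which form the usual vessel basement membrane, had few reads throughout. Reads of col4a1 were 0 and 1 in the controls, 4 and 8 in lck-IRF4 and 14 and 7 in lck-IRF4;p53+/- libraries, with log2 fold changes of 3.18 (SE 1.52, edgeR adjusted p = 0.315) and 3.81 (SE 1.50, edgeR adjusted p = 0.220). Reads of col4a2 were 1 and 0, 2 and 2, and 6 and 7 in the same order. For col4a3 and col4a4, found in mammals in the kidney filter, values of the groups overlapped in lck-IRF4 tumors: col4a3 had 9, 4, 22, 1, 13 and 12 reads and col4a4 had 5, 2, 22, 3, 14 and 1 reads over the 6 libraries.

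**Figure D3:**
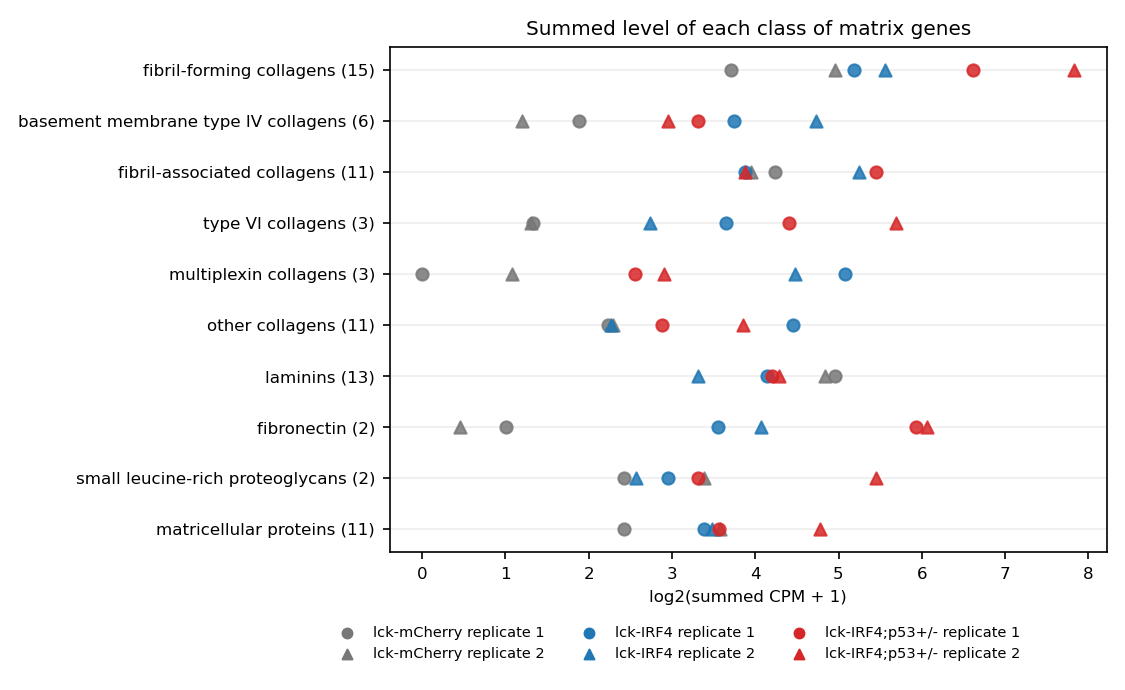
Summed level of each class of matrix genes in each library, as log2(summed CPM + 1), with the number of genes of each class in brackets, circles for replicate 1 and triangles for replicate 2. Fibril-forming and type VI collagens and fibronectin are highest in lck-IRF4;p53+/- tumors (up to 227, 50.8 and 66.0 CPM). Type IV and multiplexin collagens are highest in lck-IRF4 tumors (up to 25.5 and 32.7 CPM), the latter through col15a1b. The laminins are highest in control thymus (30.2 and 27.5 CPM) through lama5 (25.5 and 24.2 CPM).

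Among the laminins 1 chain fell and none rose. The gene lama5 (ENSDARG00000058543.6), the alpha 5 chain of epithelial and vessel basement membranes, had 152 and 131 reads in the controls, 15 and 10 in lck-IRF4 and 12 and 5 in lck-IRF4;p53+/- libraries. Both controls stood far above all 4 tumor libraries. It fell in lck-IRF4;p53+/- tumors, with a log2 fold change of -4.33 (SE 0.74, edgeR adjusted p = 0.0356) and a ratio of pooled reads of 0.0487 (95% counting interval 0.0280 to 0.0794). In lck-IRF4 tumors the log2 fold change was -3.72 (SE 0.71, edgeR adjusted p = 0.0610), with a ratio of 0.0754 (0.0480 to 0.114), and was not called. Between the tumor groups the log2 difference of lama5 was -0.61 (SE 0.69, edgeR adjusted p = 1). The call in lck-IRF4;p53+/- tumors was lost without lck-mCherry replicates 1 and 2 (-4.29 and -4.40, edgeR adjusted p = 0.131 and 0.126) and without lck-IRF4;p53+/- replicates 1 and 2 (-5.10 and -3.84, edgeR adjusted p = 0.0501 and 0.149), and also with transcript totals as library sizes (-4.08, edgeR adjusted p = 0.0548).

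The alpha 4 chain of vessel walls, lama4, had 8 and 2 reads in the controls, 16 and 16 in lck-IRF4 and 44 and 54 in lck-IRF4;p53+/- libraries. Its groups did not overlap, with log2 fold changes of 1.50 (SE 0.90, edgeR adjusted p = 0.435) and 2.99 (SE 0.92, edgeR adjusted p = 0.136). The gamma chain lamc1, shared by most laminin trimers, had 12 and 3 reads in the controls, 44 and 14 in lck-IRF4 and 24 and 47 in lck-IRF4;p53+/- libraries. All 4 tumor libraries were above both controls, with log2 fold changes of 1.65 (SE 0.96, edgeR adjusted p = 0.411) and 1.95 (SE 0.96, edgeR adjusted p = 0.313). The beta chain lamb1a had 3 and 5 reads in the controls, 3 and 2 in lck-IRF4 and 13 and 11 in lck-IRF4;p53+/- libraries, and lamb1b had 2 reads in a single library. The 13 laminins together were highest in the controls, at 30.2 and 27.5 CPM, against 16.7 and 8.91 CPM in lck-IRF4 and 17.4 and 18.5 CPM in lck-IRF4;p53+/- libraries. Most of the control sums was lama5, at 25.5 and 24.2 CPM, which was at 0.705 to 1.91 CPM in the tumors. The controls thus had the highest sums through lama5, while lama4 and lamc1 were lowest in the controls. The order of the 2 tumor groups was not that of lama5, whose mean was 1.87 CPM in lck-IRF4 and 1.22 CPM in lck-IRF4;p53+/- tumors. Without lama5, the 76 other matrix genes summed to 52.2 and 76.2 CPM in the controls, 168 and 177 CPM in lck-IRF4 and 276 and 471 CPM in lck-IRF4;p53+/- libraries.

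Decorin and lumican, small proteoglycans that bind collagen fibrils, were uneven within groups. Decorin (dcn) had 26 and 46 reads in the controls, 53 and 27 in lck-IRF4 and 61 and 298 in lck-IRF4;p53+/- libraries. Only lck-IRF4;p53+/- replicate 2 was clearly high, at 4.78 times the level of replicate 1. The log2 fold change was 1.98 (SE 0.83, edgeR adjusted p = 0.245) in lck-IRF4;p53+/- and -0.13 (SE 0.82, edgeR adjusted p = 0.952) in lck-IRF4 tumors. Without that library the former was 0.44. Lumican had 0 and 5 reads in the controls, 0 and 0 in lck-IRF4 and 1 and 4 in lck-IRF4;p53+/- libraries, so that no difference was detectable at this depth.

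The matricellular proteins, which act on cells more than they build fibers, had few reads. Sparc, a collagen-binding protein abundant in bone and fibroblasts, had 1 read in the 6 libraries together. Thrombospondin 3 (thbs3a) had 22 and 47 reads in the controls, 55 and 37 in lck-IRF4 and 54 and 136 in lck-IRF4;p53+/- libraries, and its controls overlapped both tumor groups. The edgeR adjusted p was 0.940 for the lck-IRF4 and 0.449 for the lck-IRF4;p53+/- tumors. Periostin (postna), a protein of fibroblasts in healing tissue, had 0 and 8 reads in the controls, 1 and 1 in lck-IRF4 and 5 and 25 in lck-IRF4;p53+/- libraries. The highest value was again in lck-IRF4;p53+/- replicate 2, and the controls overlapped the tumors.

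Collagens that coat fibrils or join epithelium to its matrix did not pass the test. The fibril-associated col14a1b had 49 and 30 reads in the controls, 53 and 44 in lck-IRF4 and 88 and 43 in lck-IRF4;p53+/- libraries, with log2 fold changes of 0.10 (SE 0.67, edgeR adjusted p = 0.956) and 0.44 (SE 0.67, edgeR adjusted p = 0.763). The gene col16a1 had 53 and 10 reads in the controls, 23 and 147 in lck-IRF4 and 173 and 20 in lck-IRF4;p53+/- libraries. In each group 1 library of col16a1 held several times the reads of the other, and which replicate was high differed between groups. The gene col17a1b, of the anchors between skin epithelium and its basement membrane, had 7 and 6 reads in the controls, 29 and 6 in lck-IRF4 and 11 and 14 in lck-IRF4;p53+/- libraries. The gene col28a1a had 105 reads in lck-IRF4 replicate 1 and at most 28 in any other library. The 11 fibril-associated collagens overlapped between all groups in their sum, from 13.7 to 42.8 CPM. The ceramide transfer gene col4a3bpb had 84 and 38 reads in the controls, 54 and 23 in lck-IRF4 and 94 and 39 in lck-IRF4;p53+/- libraries, with log2 fold changes of -0.93 (SE 0.74, edgeR adjusted p = 0.575) and -0.15 (SE 0.73, edgeR adjusted p = 0.934).

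Between lck-IRF4;p53+/- and lck-IRF4 tumors, none of the 78 genes passed edgeR's quasi-likelihood test, as was so for all genes but 1 (0.00712% of those tested). At an unadjusted p under 0.05 there were 10 of the 30 matrix genes tested, where 6.76% of all tested genes passed. The DESeq2 Wald test called 4 of the 30 at its adjusted p, beside 283 of all 14046 genes tested. Both lck-IRF4;p53+/- libraries lay above both lck-IRF4 libraries for 24 of the 78 genes (30.8%), against 16.3% of all recovered genes, and below them for 6 (7.69%), against 16.1%. The median log2 difference of the tested genes was 0.87, where all tested genes had 0.01, and was 1.95 and 1.35 without lck-IRF4 replicates 1 and 2 and 0.57 without lck-IRF4;p53+/- replicate 2. Among the 5 genes called against control, the largest differences were those of col5a2a, at 3.62 (SE 0.98, edgeR adjusted p = 0.359), col15a1b (above) and col1a2, at 2.79 (SE 0.80, edgeR adjusted p = 0.410). That a gene passed against control in one tumor group and not in the other is therefore not shown to be a difference between the tumor groups.

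The pattern most like that of col1a2 over the 6 libraries, by Pearson's r of log2(CPM + 1), was that of col6a1 (0.987). It was followed by col5a2a (0.952), col4a2 (0.934, not tested), col1a1a (0.923), and fn1a and lama4 (both 0.912). These values describe 6 libraries that fall into 3 groups and share their depth within each library. By position in the RefSeq annotation of another assembly (GRCz12tu), 77 of the 78 genes were found, and 8 pairs were next to each other. Among them were col4a1 with col4a2, col4a6 with col4a5, and lum with dcn. How the counting treated strand is not given in the sources used here, so reads of overlapping genes might not be separable.

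Of the other genes that make, export, link, break down or sense matrix, 108 were listed. Counted by name, 81 were recovered and 52 were tested. In lck-IRF4 tumors 1 of these rose and 0 fell, and in lck-IRF4;p53+/- tumors 1 rose and 0 fell. Of all genes tested, 0.698% and 1.28% were called higher in these comparisons. The former was itga3a, an integrin chain that binds laminin, with 19 and 21 reads in the controls, 336 and 175 in lck-IRF4 and 12 and 14 in lck-IRF4;p53+/- libraries. Its log2 fold change in lck-IRF4 tumors was 3.40 (SE 0.58, edgeR adjusted p = 0.0491). The latter was timp2b, an inhibitor of matrix metalloproteinases, with no read in the controls, 45 and 22 in lck-IRF4 and 71 and 91 in lck-IRF4;p53+/- libraries (edgeR adjusted p = 0.0271 in lck-IRF4;p53+/- and 0.0527 in lck-IRF4 tumors). No enzyme of collagen modification was called. The prolyl hydroxylase gene p4ha1b, whose product stabilizes the collagen helix, had 3 and 3 reads in the controls, 7 and 9 in lck-IRF4 and 42 and 118 in lck-IRF4;p53+/- libraries (edgeR adjusted p = 0.0618 for the latter against control). The lysyl hydroxylase gene plod1a had 0 and 2, 4 and 8, and 44 and 79 reads in the same order (edgeR adjusted p = 0.0802). Both were ordered like col1a2, but not all 9 tested genes of collagen modification and folding were. In lck-IRF4 and lck-IRF4;p53+/- tumors the log2 fold changes were 0.67 and 1.00 for ppib, which had that order too. For p4hb, whose groups overlapped, they were -0.37 and -0.11. The gene p3h1 was highest in lck-IRF4 libraries, at 22.5 and 10.5 CPM. The collagen chaperone genes serpinh1a and serpinh1b had at most 14 and 5 reads in any library, and of the lysyl oxidase genes, which cross-link collagen, 5 were at 0 throughout. The lysyl oxidase gene with the most reads, loxl3b, went the other way, with 71 and 106 reads in the controls, 56 and 23 in lck-IRF4 and 10 and 8 in lck-IRF4;p53+/- libraries (log2 fold change -3.60, SE 0.74, edgeR adjusted p = 0.0533 for the latter against control).

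Markers of other cell types were read from the same libraries. Some lists were higher in the tumors and others were not, and their part in the results was not tested. Of 21 stromal and fibroblast markers, 18 were recovered, and their sum was 41.1 and 26.6 CPM in the controls, 657 and 656 CPM in lck-IRF4 and 374 and 599 CPM in lck-IRF4;p53+/- libraries. Most of this difference came from fstl1b, a secreted glycoprotein gene with 52 and 13 reads in the controls and 2251 to 4711 in the tumors, which was called in both groups. Without fstl1b the list summed to 32.4 and 24.2 CPM in the controls, 55.4 and 32.2 CPM in lck-IRF4 and 49.7 and 82.1 CPM in lck-IRF4;p53+/- libraries. The fibroblast receptor gene pdgfra had 0 and 0 reads in the controls, 2 and 2 in lck-IRF4 and 9 and 32 in lck-IRF4;p53+/- libraries, and pdgfrb had 2 and 1, 13 and 8, and 20 and 39. The chemokine gene cxcl12a had 9 and 11 reads in the controls, 294 and 55 in lck-IRF4 and 96 and 272 in lck-IRF4;p53+/- libraries, with an edgeR adjusted p of 0.0938 and 0.0722. Other markers went the other way or stayed level: prrx1b, a transcription factor gene of limb and fin mesenchyme, had 76 and 21 reads in the controls and 2 to 13 in the tumors (log2 fold changes -4.35 and -2.60, edgeR adjusted p = 0.101 and 0.201). Reads of mfap2, of the microfibrils, were 85 and 45 in the controls and 41 to 51 in the tumors, and those of the filament gene vim 4 and 17 in the controls and 7 to 23 in the tumors. The markers twist1b and tagln were at 0 in every library, and none of the list but fstl1b was called. The sum of the list without fstl1b was highest in the library where col1a2, col6a1 and dcn were highest.

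Other lists gave other orders. The endothelial list summed to between 65.8 and 139 CPM, with controls of 102 and 125 CPM inside the range of the tumors. Most of each sum was fli1b, at 75.8 and 103 CPM in the controls. In the tumors fli1b was at 57.8 and 112 (lck-IRF4) and 43.8 and 67.7 CPM (lck-IRF4;p53+/-). Other members had fewer reads, went both ways and were not called. Reads of kdrl were 0 and 1, 3 and 1, and 8 and 12 in that order, and those of tek 14 and 20, 4 and 0, and 3 and 8. The epithelial list was 103 CPM in both controls, 668 and 138 CPM in lck-IRF4 and 442 and 604 CPM in lck-IRF4;p53+/- libraries. Of its 10 members tested, icn and krt8 rose in lck-IRF4;p53+/- tumors (edgeR adjusted p = 0.0486 and 0.0480), where 1.28% of all genes tested were called higher. The others were not called. In lck-IRF4 and lck-IRF4;p53+/- tumors the log2 fold changes were -1.32 and -1.99 for cldni and 0.40 and -0.34 for cldnh. Thymic epithelial markers summed to 14.3 and 19.4 CPM in the controls and 26.9 to 51.3 CPM in the tumors, mostly from prss16, ccl25a and dll4. Other members had fewer reads and went both ways, and none of the list was called. Reads of psmb11b were 6 and 4 in the controls and 0 to 2 in the tumors, and those of aire 4 and 2 and 0 to 2. Reads of ccl25b were 1 and 0 in the controls and 0 to 31 in the tumors, and foxn1 had at most 3 in any library. Skeletal muscle markers were highest in lck-mCherry replicate 2 (17.2 CPM) and between 0.864 and 4.21 CPM elsewhere. Cartilage and bone markers summed to 13.9 and 19.6 CPM in the controls, 30.4 and 18 CPM in lck-IRF4 and 41.8 and 44.8 CPM in lck-IRF4;p53+/- libraries. Of these 12 markers 6 were at 0 throughout, 4 were tested and none was called. Log2 fold changes in lck-IRF4 and lck-IRF4;p53+/- tumors were 2.05 and 3.43 for spp1 and 0.91 and 2.04 for sox9b. They were -0.08 and -0.42 for matn1 and -1.10 and -0.28 for sox9a. Of 12 macrophage markers 4 rose in lck-IRF4;p53+/- tumors, where 1.28% of all genes tested were called higher. Others were not called there, such as cd74a (log2 fold change -1.15) and mpeg1.1 (0.23). The macrophage sum was 598 and 1090 CPM in the controls and 914 and 1430 CPM in those tumors. Most of the control sums was cd74a, at 541 and 996 CPM, against 323 and 372 CPM in those tumors. The sum therefore does not follow the 4 genes that rose. The T-cell markers cd4-1, cd8a and cd8b fell there, where 1.15% of all genes tested were called lower. The other T-cell markers tested were not called there, rag2 among them (log2 fold change 1.77, edgeR adjusted p = 0.116). In lck-IRF4 tumors cd8b fell too (-4.33, edgeR adjusted p = 0.0331), where 0.242% of all genes tested were called lower. There cd4-1 (-3.79, edgeR adjusted p = 0.0894) and cd8a (-1.75, edgeR adjusted p = 0.144) were not called. Of the granulocyte list 3 genes rose in lck-IRF4;p53+/- tumors, beside the same 1.28%, among them timp2b, which stands in that list and in the matrix list. The granulocyte sum was lower in the tumors, at 1680 and 1390 CPM in the controls and 602 to 1180 CPM in the tumors. Most of it was srgn, at 1660 and 1370 CPM in the controls, which was not called (log2 fold changes -1.13 and -1.05, edgeR adjusted p = 0.210 and 0.228). The controls thus had the highest sums through srgn and not through the whole list. Reads of lyz were 0 and 1 in the controls and 38 to 95 in the tumors, and those of lect2l 11 and 15 and 142 to 1011. The gene mmp9 was mixed, with 68 and 46 reads in the controls and 6 to 342 in the tumors. Erythrocyte markers summed to 286 and 640 CPM in the controls, 1660 and 1420 CPM in lck-IRF4 and 1870 and 213 CPM in lck-IRF4;p53+/- libraries. They were thus lowest in lck-IRF4;p53+/- replicate 2, the library with the most matrix reads, and above both controls in every other tumor library. None of the list was called. The B-cell list was 12.9 and 23.8 CPM in the controls, 99.8 and 132 CPM in lck-IRF4 and 26.1 and 30.6 CPM in lck-IRF4;p53+/- libraries.

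**Figure D4:**
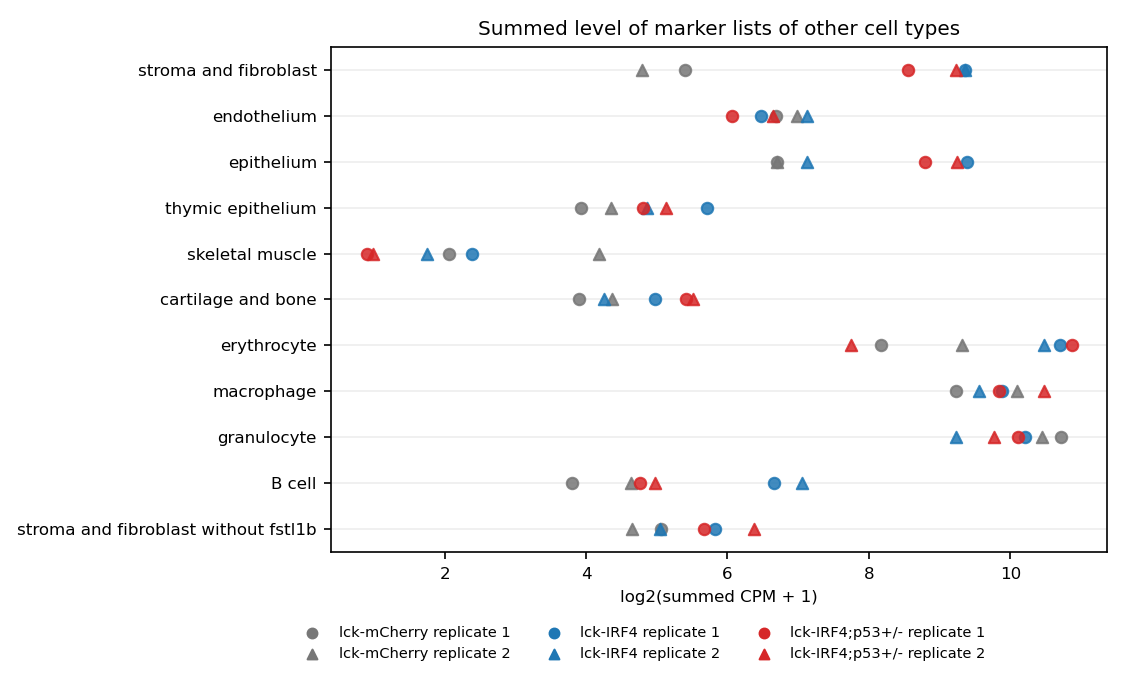
Summed level of marker lists of cell types other than T cells in each library, as log2(summed CPM + 1), with circles for replicate 1 and triangles for replicate 2. The stromal list is higher in all tumor libraries (374 to 657 CPM) than in the controls (41.1 and 26.6 CPM), and overlaps between tumors and controls without fstl1b (32.2 to 82.1 against 32.4 and 24.2 CPM).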

How the data were processed

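Strand-specific libraries of total RNA were read from both ends (100 bases, BGISeq500). The submitters' processing notes name STAR 2.5.2a, featureCounts 1.6.1, DESeq2 1.12.4 and GRCz11. The authors deposited whole-number counts per transcript for each library, without gene names, and 2 gene tables of 31901 genes. In each table the mean of normalized counts (a signal computed by the authors over 4 libraries) was used. The tables' fold changes and p-values, the authors' own comparison, were not used.

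Each gene mean is a sum of whole reads divided by size factors. The lowest values in each table gave what 1 read of each library is worth, and the 6 counts of a gene were solved from both tables by lattice reduction to a relative tolerance of 1e-14. Steps were assigned to libraries by transcripts whose labelled counts gave a table value (21 in each table, 2 and 1 for the next best order). Solutions came out whole for 23074 genes (99.3%). The 154 with a mean above 10000, which held 46.3% and 46.0% of the normalized totals, were not recovered. Each table solved alone gave the same control reads for 16004 of 16004 genes with a mean up to 100.

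The planned sum of transcripts per gene was not possible, because no table used here pairs the identifiers, so the recovered reads took its place. They were tested with edgeR 4.0.16 in R 4.3.3 (quasi-likelihood test, TMM scaling, filterByExpr, 1 fit over 6 libraries, 14046 genes, biological coefficient of variation 0.535, adjusted p threshold 0.05), and the fit was checked on simulated data. Alternatives used DESeq2 1.42.0 and limma 3.58.1 (pseudocount of 1 CPM), other filters, scalings and samples. Folds against a group at 0 used 3 reads per library. Wilson and exact intervals (95%) and that floor hold for counting error alone, because molecules carried no identifiers.

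Named genes were those called, the 10 with the highest mean CPM, the 5 highest and 5 lowest fold changes in each tumor group, and chains made together. A few others are named where a sentence turns on them, chosen after their values were seen. Members, lists and tests were chosen with earlier results of these data known.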

Additional observations from a re-analysis of the deposited data

Results flagged for a closer look

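For 3 of the 30 matrix genes tested, both libraries of one tumor group lay above the mean of the controls and both of the other lay below it. The difference between the tumor groups (lck-IRF4;p53+/- over lck-IRF4) was 4.27 on the log2 scale for col1a1a (SE 1.39, edgeR adjusted p = 0.516), 2.40 for col5a3a (SE 1.21, edgeR adjusted p = 0.850) and 2.14 for lamb1a (SE 1.05, edgeR adjusted p = 0.836). None of these passed the test of the difference. Each group has 2 libraries, and no gene was examined for a single library far from the rest of its group.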

How the results depend on the processing

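Each group had 2 libraries, and most matrix genes had few reads. In lck-IRF4 tumors 2 matrix genes were called, 6 with every gene of at least 1 count tested and 5 with the DESeq2 Wald test. In lck-IRF4;p53+/- tumors 5 were called, 12 with every gene tested, 13 with DESeq2 and 2 with deposited transcript totals as library sizes. Between the tumor groups 0 were called, 5 with every gene tested and 4 with DESeq2. Against control these counts also changed with 1 library left out. Over all genes the calls in the 3 comparisons numbered 132, 341 and 1 of 14046. They numbered 1721, 1727 and 432 of 23074 with every gene tested, and 1359, 1493 and 283 of 14046 with DESeq2. With transcript totals they numbered 83, 208 and 1 of 14046. The cause of these differences was not tested. Transcript totals moved the median of all genes by 0.28 and 0.24 against control. With them the shares of the 78 genes were 0.00497% and 0.00470% in control, 0.0115% and 0.00993% in lck-IRF4 and 0.0173% and 0.0267% in lck-IRF4;p53+/- libraries.

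The replicate block gave 2, 3 and 0 calls in the 3 comparisons, without col5a2a (edgeR adjusted p = 0.0528) and col15a1b (0.0685) in lck-IRF4;p53+/- tumors. Over all genes it called 178, 316 and 0 of 14046. Deviations of libraries with the same number correlated at 0.0635 (control with lck-IRF4), 0.204 (control with lck-IRF4;p53+/-) and -0.0379 (between the tumor groups). With 2 libraries per group these values cannot tell whether replicate numbers mark a shared batch. Under the block, values that turned sign without being called were col1a1a (0.10) and dcn (0.08) in lck-IRF4 tumors. With transcript totals they were dcn in lck-IRF4 tumors (0.22), col4a3bpb in lck-IRF4;p53+/- tumors (0.06) and col16a1 between the tumor groups (0.00). Medians in lck-IRF4 tumors were 1.48, 0.88 with limma and 0.24 to 2.37 with 1 library left out. In lck-IRF4;p53+/- tumors they were 2.63, 2.24 with every gene tested, 1.43 with limma, 2.23 with all 78 genes kept and 2.41 to 2.88 with 1 library left out. Between the tumor groups they were 0.87, 0.65 with every gene tested and with limma, 0.63 with all 78 kept and 0.57 to 1.95 with 1 library left out.

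With 1 library left out, uncalled log2 fold changes that turned sign in lck-IRF4 tumors ranged from -0.17 to 0.40 (col14a1b), -0.89 to 2.99 (col16a1), -0.04 to 1.67 (col17a1b), -1.42 to 4.92 (col1a1a), -0.43 to 2.18 (col1a1b), -2.49 to 1.28 (col4a3), -1.83 to 1.58 (col5a3a), -0.55 to 0.41 (dcn) and -0.35 to 0.88 (thbs3a). For lck-IRF4;p53+/- tumors they ranged from -0.19 to 0.86 (col14a1b), -0.93 to 2.90 (col16a1) and -0.94 to 0.44 (col4a3bpb). Between the tumor groups they ranged from -0.27 to 0.76 (col14a1b), -2.38 to 2.23 (col16a1), -1.05 to 0.67 (col17a1b), -0.65 to 3.13 (col4a3), -0.50 to 1.95 (col6a4a) and -0.26 to 0.95 (lamc1). Transcript totals, limma and the filter with all 78 genes kept were chosen after seeing the data, and the planned test of single transcripts was not run.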
